A study of Mus musculus with 9 samples.

Results

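The untreated peritubular myoid cells of this series are described here across genes, from 3 of its 9 libraries. They were chosen by their treatment label, "none", and are called controls 1, 2 and 3 from the replicate numbers in the labels. The cells were primary myoid cells of C57BL/6J mouse testis, kept at 37 °C in DMEM/F12 with 10% fetal bovine serum. The other 6 libraries came from such cells held at 42 °C for 30 min and collected 1 or 6 hours later, and they were not used. The labels give neither the age of the mice nor whether replicates came from separate animals or cultures, so the spread between libraries may be technical. They describe no sorting step and no purity check of the isolated cells.

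Peritubular myoid cells are flattened, smooth muscle-like cells that wrap the seminiferous tubules of the testis. Their contraction moves sperm and fluid along the tubule, and with Sertoli cells they build the basement membrane on which germ cells rest. They respond to hormones, and they secrete growth factors that act on spermatogonial stem cells. In culture with serum, smooth muscle cells are known to lose part of their contractile program and to gain features of matrix-producing cells.

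Levels are FPKM, fragment numbers divided by the length of the transcript and by the depth of the library. They can be compared between genes and, with a limit, between libraries. The limit is that their sums differed, at 491104, 495537 and 433744 FPKM for controls 1, 2 and 3, and levels are given without rescaling. They are relative to the other RNA of a library, and with RNA from many cells, fewer cells of a type and less RNA per cell cannot be told apart. Values are given in the order controls 1, 2 and 3 throughout, and a mean is followed by its SD over these 3 libraries. Of 20717 genes listed, 17559 had values, and 10672 of these (60.8%) were at 1 FPKM or more in all 3 libraries. The median gene had a mean of 4.10 FPKM, or 3.81 FPKM without control 3. A mean of 10 FPKM or more was reached by 6166 genes, 100 FPKM by 846 and 1000 FPKM by 48, while 917 genes were listed at 0 in every untreated library. Depth, estimated from the smallest values of short transcripts, was 19045000, 19100000 and 19010000 fragments.

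Control 3 stood apart from the other libraries. Over the 11353 genes with a mean of at least 1 FPKM, Pearson's r of log2(FPKM + 1) was 0.976 between controls 1 and 2, 0.942 between controls 1 and 3 and 0.928 between controls 2 and 3. Spearman's rho over the same genes was 0.973, 0.934 and 0.918. These are correlations across genes, which are not independent replicates. The median absolute difference on the log2 scale was 0.206 for controls 1 and 2, 0.295 for controls 1 and 3 and 0.347 for controls 2 and 3. On FPKM + 1, all 3 libraries lay within 2-fold of each other for 9775 of these genes (86.1%), and 275 (2.42%) were spread over more than 4-fold. Later counts of genes within 2-fold, or over 2-fold from both other libraries, are also on FPKM + 1. Control 3 was the library farthest from the other pair for 5600 genes (49.3%). In controls 1 and 2 alone, 10850 genes were at 1 FPKM or more in both. This count was 10775 without control 1 and 10882 without control 2. Counts over 2 libraries can only equal or exceed those over 3, so they do not set control 3 apart. Without control 3, matrix glycoproteins had 36 members at 1 FPKM or more, against 33 in all 3 libraries. Mesenchymal and gonadal regulators had 40 against 37, the annotated transcription factors 571 against 560 and the annotated receptors 192 against 183.

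**Figure D1:**
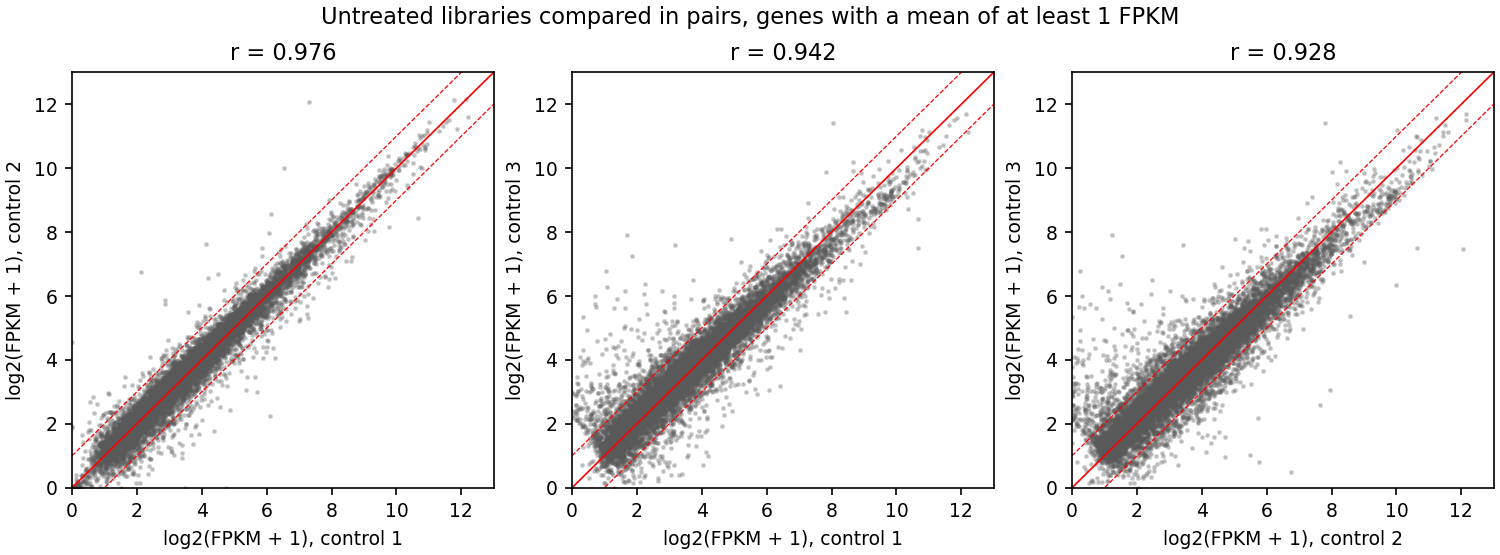
Each point is a gene with a mean of at least 1 FPKM (n = 11353), plotted as log2(FPKM + 1) in one untreated library against another, with the solid line marking equality and the dashed lines a 2-fold difference. Points are tightest for controls 1 and 2 (r = 0.976), and both plots with control 3 show a cloud of genes far above the line at low levels of the other library.

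Genes of 1 to 10 FPKM had a median log2 SD of 0.257 over the 3 libraries, where the estimated fragment number (median 249) gives 0.071, and from controls 1 and 2 alone it was 0.154. Genes of 100 FPKM or more had a median log2 SD of 0.273, against 0.018 from counting (median 6476.5 fragments) and 0.127 from controls 1 and 2 alone. Separate samples vary by more than counting, so these values only give its size. From controls 1 and 2 alone the median over all 11353 genes was 0.146, and it was 0.240 with control 3. At equal spread, the median SD of 2 values is lower than that of 3. Part of each such gap thus comes from the number of libraries, and that part was not separated from control 3.

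The smooth muscle markers by which the label was checked were all present, at very different levels. Acta2, the smooth muscle alpha-actin that is the usual marker of myoid cells, stood at 1505, 1349 and 1627 FPKM, a mean of 1494 ± 140 and rank 23 of all genes (chromosome 19, 34240336 to 34255373, mm10). Cnn1, the thin filament protein calponin 1, stood at 64.2, 23.6 and 119 FPKM (rank 1238, chromosome 9, 22099253 to 22109221). Des, the muscle intermediate filament desmin, stood at 20.4, 34.1 and 63.7 FPKM (rank 2146, chromosome 1, 75360292 to 75368579). Myh11, the smooth muscle myosin heavy chain, stood at 15.8, 27.5 and 48.8 FPKM (rank 2695, chromosome 16, 14194527 to 14291408). Acta2 was even across the libraries, while the other markers were highest in control 3, by 2.72-fold for Cnn1, 2.34-fold for Des and 2.26-fold for Myh11 over the mean of controls 1 and 2. The ratio of Acta2 to Myh11 was 95.1, 49.1 and 33.3, and the ratio of Acta2 to Cnn1 was 23.4, 57.2 and 13.6. All 4 markers were thus present in every library, in no fixed proportion to Acta2. Their presence does not give the purity of the cells, which was not tested. The Leydig cell marker Insl3 was above Acta2 in controls 1 and 2, at 1607 and 1587 FPKM. The Sertoli cell marker Clu was above it in control 3, at 2700 FPKM.

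Of the 30 contractile genes listed, 27 were at 1 FPKM or more in all 3 libraries, 25 at 10 FPKM and 11 at 100 FPKM. Their median level was 102 FPKM, or 77.1 FPKM without control 3, where the median of all genes was 4.10 FPKM. Tagln, the actin-binding protein transgelin, was the highest at 1961, 1732 and 1884 FPKM. Tpm1, a tropomyosin that covers the myosin sites of the actin filament, stood at 1683, 1547 and 2074 FPKM. Both were within 1.5-fold across the libraries, Tagln lowest in control 2 and Tpm1 highest in control 3. The essential light chain Myl6 stood at 1583, 1499 and 1167 FPKM and the regulatory light chain Myl9, whose phosphorylation starts contraction, at 934, 645 and 926 FPKM. Myl6 was lowest in control 3 and Myl9 in control 2. Tpm4, a tropomyosin found mostly in non-muscle cells, stood at 893, 917 and 764 FPKM and the muscle form Tpm2 at 641, 411 and 431 FPKM. Cald1, the myosin inhibitor caldesmon, was at 703, 637 and 999.9 FPKM, highest in control 3. The cytoskeletal proteins Csrp1 (443, 440.1 and 582 FPKM) and Actn1 (384, 324 and 509 FPKM), the latter an actin cross-linker, were also highest there.

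Among lower members, named after their values were seen, the myosin light chain kinase Mylk stood at 97.8, 78.2 and 154 FPKM and the adhesion protein vinculin, Vcl, at 106, 93.1 and 193 FPKM. Both were highest in control 3. Synpo2 (0.35, 0.28 and 1.01 FPKM), Smtnl2 (1.34, 0.6 and 0.68 FPKM) and Mylk4 (0.07, 0.01 and 0.14 FPKM) were the members that missed 1 FPKM in some library. Of the 27 members with a mean of at least 1 FPKM, 20 lay within 2-fold across the libraries, where 86.1% of all genes did. Control 3 was the highest library for 19 of them and control 2 the lowest for 18, where over all 11353 genes these shares were 42.2% and 31.6%. Control 3 stood over 2-fold above both others for 2 of the 27, where 3.67% of all 11353 genes did.

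**Figure D2:**
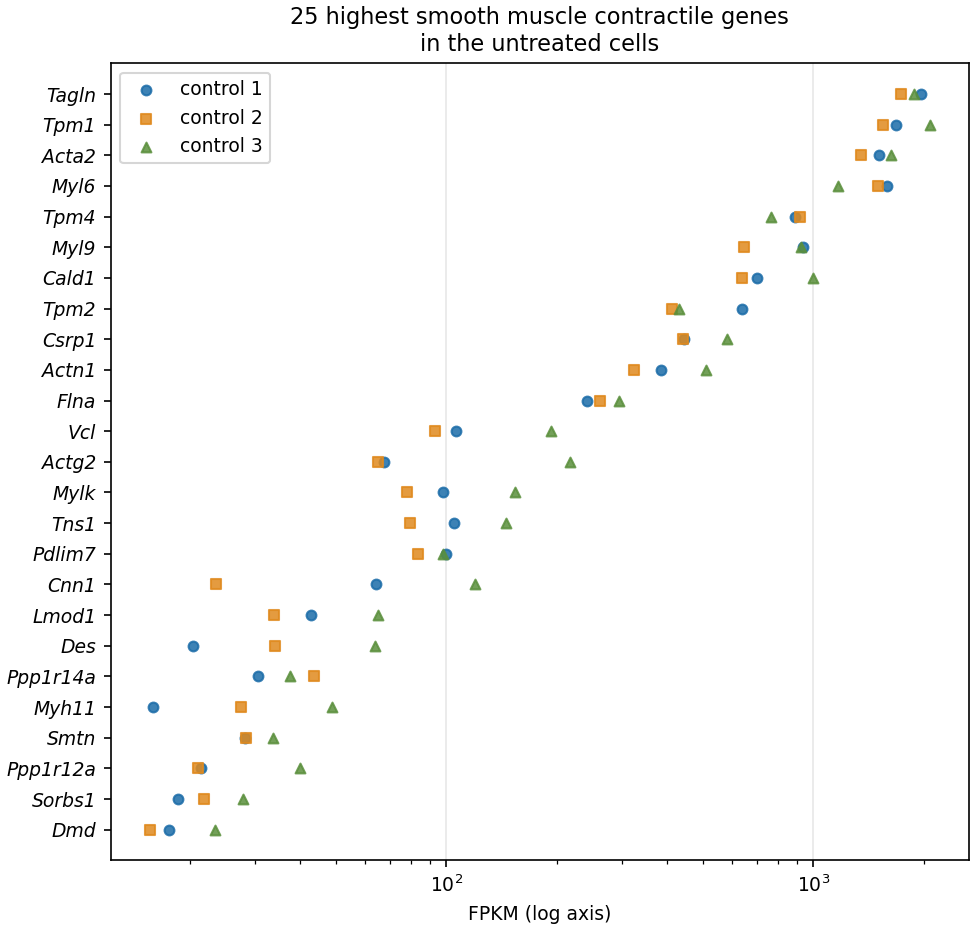
The 25 contractile genes with the highest mean are plotted with their FPKM (log axis) in each untreated library, control 1 as circles, control 2 as squares and control 3 as triangles. The highest genes lie close together, and among the lower ones control 3 is mostly to the right, as for Cnn1, Des and Myh11.

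The non-muscle actins exceeded the smooth muscle ones. Actb, beta-actin, stood at 2960.3, 2773 and 2038 FPKM and Actg1, gamma-actin, at 2067, 2781 and 2249 FPKM. The deposited table places Actg1 on chromosome 4 and RefSeq on chromosome 11, so fragments of near-identical copies may be counted with it and its level is uncertain. Actg2, the enteric smooth muscle actin, stood at 67.6, 64.97 and 216 FPKM, 3.33 times as high in control 3 as in control 2. The skeletal actin Acta1 stood at 0.36, 0.44 and 2.47 FPKM, above 1 FPKM only in control 3, and the cardiac actin Actc1 (0.04, 0 and 0.07 FPKM) was near 0 in every library.

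Smooth muscle promoters are known for CArG boxes, which serum response factor binds, and for a CATTCC element, which TEAD factors bind. The RefSeq promoters used here (build GRCm38.p6) span 250 bases before to 50 after the gene start. They were searched 5 times, all after the levels were known. A CArG box with no mismatch was in 4 of 26 contractile genes with a promoter (15.4%) and in 1.81% of all 27025 genes. Acta2 had none, and a second search was then added that let 1 of the inner letters of the box be G or C. It matched 5 of the 26 (19.2%), Acta2 among them, against 11.3% of all genes. CATTCC or its complement GGAATG was in 9 of 26 (34.6%) against 16.6%, AAGGTCA or TGACCTT in 1 of 26 (3.85%) against 5.38% (1 of 9 Leydig cell markers, 11.1%), and TATAAA or TTTATA in 3 of 26 (11.5%) against 15.7%. A match is a description of the letters only. 5 promoters are shown because they include the main marker, 2 contractile genes with an exact box, and 2 other actins. These 2 had the highest and the lowest mean of the 4 actins with a promoter. Capitals mark CArG boxes with at most 1 mismatch and CATTCC or GGAATG, which do not overlap here.
Acta2, chr19:34255324-34255623, minus strand: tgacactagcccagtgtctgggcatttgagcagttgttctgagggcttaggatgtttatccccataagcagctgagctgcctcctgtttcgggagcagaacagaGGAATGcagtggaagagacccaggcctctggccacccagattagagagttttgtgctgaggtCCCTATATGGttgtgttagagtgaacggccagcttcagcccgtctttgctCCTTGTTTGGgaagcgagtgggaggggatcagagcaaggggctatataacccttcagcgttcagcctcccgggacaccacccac
Myl9, chr2:156775214-156775513, plus strand: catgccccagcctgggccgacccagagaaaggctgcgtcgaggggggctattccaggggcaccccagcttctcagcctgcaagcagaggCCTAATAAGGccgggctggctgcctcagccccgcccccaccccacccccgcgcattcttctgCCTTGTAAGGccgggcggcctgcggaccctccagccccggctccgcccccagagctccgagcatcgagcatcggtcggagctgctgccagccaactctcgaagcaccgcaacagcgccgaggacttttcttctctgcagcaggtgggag
Vcl, chr14:20929148-20929447, plus strand: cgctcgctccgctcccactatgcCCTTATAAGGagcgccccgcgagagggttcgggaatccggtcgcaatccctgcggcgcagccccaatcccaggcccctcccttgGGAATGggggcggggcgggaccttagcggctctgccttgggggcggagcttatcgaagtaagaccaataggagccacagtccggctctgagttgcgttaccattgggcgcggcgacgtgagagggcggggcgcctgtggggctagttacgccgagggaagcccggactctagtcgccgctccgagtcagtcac
Actg1, chr11:120348446-120348745, minus strand: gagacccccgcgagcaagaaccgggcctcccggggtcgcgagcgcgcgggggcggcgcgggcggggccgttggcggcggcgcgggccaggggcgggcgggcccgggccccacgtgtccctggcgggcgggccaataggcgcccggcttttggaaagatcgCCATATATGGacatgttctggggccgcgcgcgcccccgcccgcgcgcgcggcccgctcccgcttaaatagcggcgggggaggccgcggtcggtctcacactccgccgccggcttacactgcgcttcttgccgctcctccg
Actc1, chr2:114052826-114053125, minus strand: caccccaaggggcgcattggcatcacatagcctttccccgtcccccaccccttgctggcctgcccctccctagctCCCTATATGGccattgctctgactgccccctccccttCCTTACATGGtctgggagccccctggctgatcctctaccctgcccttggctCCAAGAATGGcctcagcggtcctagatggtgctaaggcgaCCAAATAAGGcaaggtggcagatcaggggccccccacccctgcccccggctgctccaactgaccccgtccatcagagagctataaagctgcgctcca
Of the 4 actin genes with a promoter, 3 had an exact box (75%), against 1.81% of all genes. With at most 1 mismatch all 4 had a box, against 11.3%. The exact box was found in Acta1 (0.36, 0.44 and 2.47 FPKM), in Actg1, with a mean of 2366 FPKM, and in Actc1, which reached 0.07 FPKM at most. The letters of the boxes differ between these genes, which were chosen with their levels known.

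Of 14 genes of the serum response factor axis, 12 were at 1 FPKM or more in all 3 libraries, with a median of 15.4 FPKM. Srf itself stood at 37.1, 35.2 and 24.6 FPKM, lowest in control 3. Its actin-regulated partner Mkl1 stood at 19.6, 17.8 and 20.2 FPKM and the related Mkl2 at 2.74, 3.11 and 4.86 FPKM. The muscle-restricted partner Myocd, named after its values were seen, was at 0.25, 0.11 and 0.57 FPKM, under 1 FPKM in every library. Of the Hippo pathway effectors, Yap1 stood at 40.5, 37.9 and 44.9 FPKM and Wwtr1 at 29.2, 24.6 and 40.3 FPKM. Their DNA-binding partner Tead1 stood at 29.1, 29.1 and 51.7 FPKM, highest in control 3. Tead3 (16.2, 14.8 and 19.2 FPKM) and Tead2 (10.5, 12.6 and 10.2 FPKM) followed, and the MEF2 factors Mef2d (25.7, 24.6 and 34.2 FPKM) and Mef2a (10.4, 14.7 and 17.1 FPKM) were also present. All 12 members with a mean of at least 1 FPKM lay within 2-fold across the libraries, as 86.1% of all genes did.

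The most abundant transcripts were led by Ftl1, Eef1a1, Gapdh and Sparc. Ftl1, the ferritin light chain, was at 4575, 4548 and 3336 FPKM (4153 ± 708). The elongation factor Eef1a1 stood at 3495, 4523 and 2901 FPKM and the glycolytic enzyme Gapdh at 4684, 3083 and 2253 FPKM. All 3 were lowest in control 3, and Gapdh was the most uneven, since control 1 had 2.08 times its control 3 level. Sparc, a collagen-binding matrix protein, stood at 3713, 2400.5 and 3067 FPKM, and the galactoside-binding Lgals1 at 3158, 2905 and 2586 FPKM. Aldh1a1, an enzyme of retinoic acid synthesis, was ninth at 2519, 2280.4 and 1632 FPKM. Vim, the mesenchymal intermediate filament, stood at 1824, 1709 and 1474 FPKM, and Tagln, Tpm1, Acta2 and Myl6 were the contractile genes among the 30 highest. Spp1, the secreted phosphoprotein osteopontin, stood at 1756, 1026 and 2320.3 FPKM, lowest in control 2, and the proteoglycan Bgn at 1124, 1184 and 1508 FPKM, highest in control 3.

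The 30 highest genes by mean held 13.1, 13.4 and 11.6% of the summed FPKM, and 22 genes were in the 30 highest of every library. Saa3, an acute-phase protein, was among the 30 only through control 2, at 158, 4290.2 and 178 FPKM. The 5 ribosomal protein genes among the 30, Rplp1, Rpl41, Rpl23a, Rps2 and Rpl35, were lowest in control 3 in each case. All 84 ribosomal protein genes summed to 12.7, 13.6 and 9.12% of FPKM. Ribosomal protein genes and Gapdh have many near-identical pseudogenes, so how fragments were divided among them is uncertain.

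**Figure D3:**
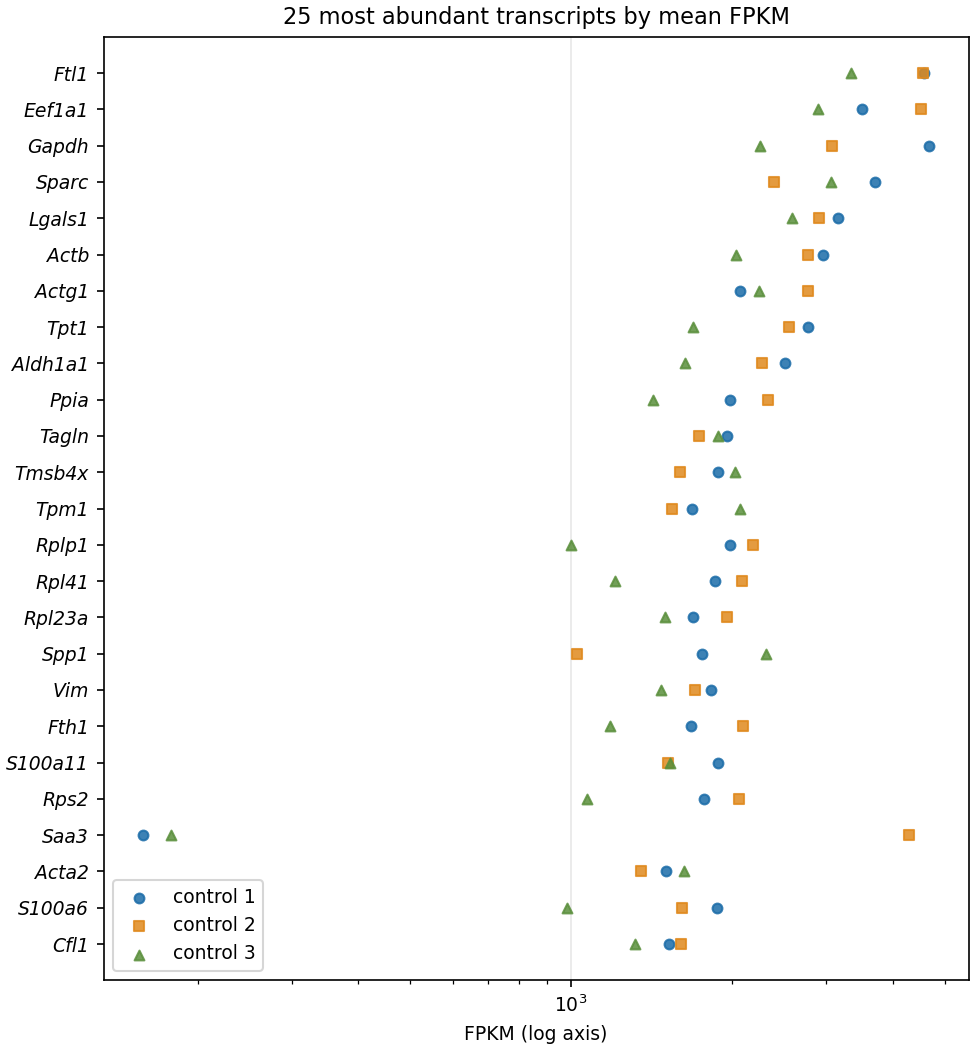
The 25 genes with the highest mean are plotted with their FPKM (log axis) in controls 1 (circles), 2 (squares) and 3 (triangles), in order of the mean. Saa3 is the exception to the close spacing, at 4290.2 FPKM in control 2 and 178 FPKM or less in the others, and control 3 is the lowest point for ribosomal proteins and ferritins.

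Of 44 collagen chain genes, 21 were at 1 FPKM or more in all 3 libraries, and the median of the 44 was 0.92 FPKM, so most chains were low or absent and a few were high. Col4a1, a chain of the basement membrane network, stood at 613, 495 and 666 FPKM and its partner Col4a2 at 364, 291 and 435 FPKM. Their ratio was 1.68, 1.70 and 1.53. The fibrillar chains of type I collagen stood at 563, 263 and 492 FPKM for Col1a1 and 552, 431 and 635 FPKM for Col1a2, and type III, Col3a1, at 308, 179.7 and 282 FPKM. All 5 of these chains were lowest in control 2. Col5a2 (233, 177 and 259 FPKM) and Col5a1 (75.2, 59.97 and 59.4 FPKM), which set fibril diameter, came next, ahead of Col15a1 (59.05, 26.8 and 67.4 FPKM), Col4a5 (57.1, 32.3 and 56.5 FPKM) and Col11a1 (30.5, 22.1 and 70.5 FPKM). Control 2 was the lowest library for 15 of the 22 chains with a mean of at least 1 FPKM, and for 31.6% of all genes. It stood over 2-fold below both others for 3 of them, where 0.625% of all genes did.

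Of 21 laminin and other basement membrane genes, 19 were at 1 FPKM or more in all 3 libraries, with a median of 13.8 FPKM (8.73 FPKM without control 3). After Sparc, the fibulin Fbln2 was highest at 590.3, 301.2 and 373 FPKM. Nid1, the link between laminin and type IV collagen, stood at 121, 101 and 114 FPKM, and the heparan sulfate proteoglycan perlecan, Hspg2, at 71.8, 69.4 and 82.9 FPKM. Both were even across the libraries. The laminin chains were Lamb1 at 66.3, 66.9 and 94.8 FPKM, Lamc1 at 51.2, 45.4 and 64.2 FPKM and Lamb2 at 38.9, 33.6 and 36.9 FPKM. Of the alpha chains, Lama4 stood at 36.5, 33.1 and 15.4 FPKM and Lama1 at 9.52, 7.95 and 26.2 FPKM, so that their order was reversed in control 3. Nid2, at 35.03, 21.01 and 13.6 FPKM, was lowest in control 3.

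Of 40 matrix glycoprotein and proteoglycan genes, 33 were at 1 FPKM or more in all 3 libraries, with a median of 28.4 FPKM. Besides Spp1 and Bgn, Igfbp7 stood at 1091, 976 and 975 FPKM. The matricellular proteins Cyr61 (1296, 717 and 542 FPKM), Ctgf (848, 728 and 843 FPKM) and Thbs1 (892, 621 and 766 FPKM), known targets of YAP signalling or TGF-beta, were also high. Cyr61 was highest in control 1, while Ctgf and Thbs1 lay within 1.5-fold across the libraries. Lox, which cross-links collagen and elastin, stood at 487, 368 and 472 FPKM, and fibronectin, Fn1, at 124, 77.3 and 189 FPKM. The fibulins Efemp2 (202, 157 and 128 FPKM) and Efemp1 (174, 104 and 88.2 FPKM) completed the 10 highest.

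Among proteases and inhibitors, 32 of 49 genes with values were at 1 FPKM or more in all 3 libraries. Inhibitors of metalloproteases were high. Timp1 stood at 1279, 1363 and 967 FPKM, Timp3 at 864, 285 and 727 FPKM and Timp2 at 404, 306 and 364 FPKM. Timp3 was lowest in control 2 and Timp1 in control 3. Serpinh1, the collagen chaperone of the endoplasmic reticulum, stood at 664, 546 and 425 FPKM. Of the proteases, Ctsl stood at 225, 256 and 937 FPKM, highest in control 3, and Ctsb at 349, 329.9 and 382 FPKM. Mmp14 stood at 146, 175 and 228 FPKM, Mmp11 at 91.3, 59.2 and 192 FPKM and Adamts1 at 103, 89.9 and 65.9 FPKM.

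Integrins, the receptors for these matrix proteins, were led by few chains. Itgb1 stood at 444, 425 and 468 FPKM and Itga5, its partner in the fibronectin receptor, at 116, 105 and 115 FPKM. Their ratio was 3.82, 4.07 and 4.06. Itgb5 (86.2, 51.4 and 120.1 FPKM) and Itgav (34.1, 40.05 and 45.5 FPKM), which pair as a vitronectin receptor, followed. Only 10 of 26 integrin genes were at 1 FPKM or more in all 3 libraries. The laminin receptor chains Itga6 (2.38, 1.22 and 15.01 FPKM) and Itga7 (1.53, 2.61 and 11.01 FPKM) were highest in control 3, which stood over 2-fold above both others for 4 of the 13 integrin genes with a mean of at least 1 FPKM, where 3.67% of all genes did.

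Among 53 receptor tyrosine kinase genes with values, 27 were at 1 FPKM or more in all 3 libraries. Axl, the receptor for GAS6, was far above the others at 318, 367 and 351 FPKM. The collagen receptor Ddr1 stood at 82.4, 89.9 and 149 FPKM and Ddr2 at 20.4, 21.9 and 17.7 FPKM. Fgfr1 stood at 45.4, 54.7 and 63.2 FPKM, Ryk at 50.2, 51.6 and 40.8 FPKM and Egfr at 39.5, 46.97 and 27.1 FPKM. The PDGF receptors, which carry growth signals in mesenchymal cells, differed in pattern. Pdgfra stood at 33.9, 46 and 19.1 FPKM and Pdgfrb at 13.3, 33.1 and 37.2 FPKM, so Pdgfra was the higher in controls 1 and 2 and Pdgfrb in control 3. Epha2 (36.5, 19.9 and 31.97 FPKM) and Ephb4 (21.8, 19.8 and 23.8 FPKM) were the highest ephrin receptors.

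Of 22 TGF-beta superfamily receptor and SMAD genes, 18 were at 1 FPKM or more in all 3 libraries, with a median of 13.6 FPKM. The co-receptors Eng (54.3, 49.6 and 45.9 FPKM) and Tgfbr3 (39.3, 37.2 and 24.4 FPKM) were the highest. The signalling receptors Tgfbr1 (12.7, 13.7 and 19.2 FPKM), Tgfbr2 (17.4, 14.4 and 25.3 FPKM), Acvrl1 (20.4, 25.3 and 27.7 FPKM), Bmpr1a (19.2, 22.1 and 27.1 FPKM) and Acvr1 (22.01, 15.8 and 19.9 FPKM) lay between 12.7 and 27.7 FPKM. Others, named after their values were seen, had lower means. They were Bmpr2 (5.02, 4.93 and 13.3 FPKM), Acvr1b (3.07, 3.43 and 4.16 FPKM) and Acvr2a (2.42, 3.01 and 3.34 FPKM), with Bmpr1b, Acvr2b and Acvr1c under 1 FPKM in every library. The common mediator Smad4 stood at 18.4, 21.6 and 22.9 FPKM. The inhibitory Smad6 stood at 43.2, 28.5 and 9.35 FPKM and Smad7 at 20.3, 18.4 and 13.7 FPKM, both lowest in control 3. Amhr2, the anti-Müllerian hormone receptor, named after its values were seen, stood at 3.08, 8.16 and 25.3 FPKM, highest in control 3.

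Of receptors that act on contraction, 23 of 56 genes with values (41.1%) were at 1 FPKM or more in all 3 libraries, with a median of 0.95 FPKM. This was lower than over all genes (60.8%, median 4.10 FPKM). It was higher than over the genes annotated as transmembrane signalling receptors (23.9%, median 0.11 FPKM). The highest contraction receptor by far was F2r, the thrombin receptor PAR1, at 317, 230.4 and 322 FPKM. The sphingosine 1-phosphate receptors S1pr3 (34.7, 45.7 and 24.8 FPKM) and S1pr2 (19.7, 22.6 and 22.1 FPKM) followed, with the vasopressin receptor Avpr1a at 30.3, 42.1 and 21.1 FPKM. P2ry2 (21.9, 35.1 and 32.4 FPKM) and P2rx4 (10.2, 16.7 and 17.8 FPKM), which respond to ATP, the natriuretic peptide receptor Npr3 (27.1, 23.99 and 17.1 FPKM) and Lpar1 (17.9, 21.1 and 16.5 FPKM) were in the same range. Adra1d (29.2, 15.9 and 14.8 FPKM) and the adenosine receptor Adora2b (29.3, 14.7 and 12.8 FPKM) were highest in control 1. Among classical agonist receptors of the myoid cell, named after their values were seen, the endothelin receptor Ednra stood at 3.83, 8.23 and 5.8 FPKM and Ednrb at 0.18, 0.22 and 0.5 FPKM. The angiotensin receptor Agtr1a stood at 6.68, 5.75 and 7.12 FPKM and the oxytocin receptor Oxtr at 0.37, 1.03 and 0.47 FPKM. So Ednra and Agtr1a were present at a few FPKM in every library, whereas Ednrb stayed under 1 FPKM in all and Oxtr passed it only in control 2.

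Of 23 Notch, Hedgehog and Wnt receptor genes, 15 were at 1 FPKM or more in all 3 libraries. Fzd2 stood at 43.6, 34.8 and 37.7 FPKM and the Hedgehog transducer Smo at 24, 26.1 and 17.9 FPKM. The Wnt co-receptors Lrp5 (18.7, 15.2 and 11.7 FPKM) and Lrp6 (7.65, 7.53 and 12.1 FPKM) were present, as were Notch2 (5.83, 7.34 and 12.1 FPKM) and the Hedgehog receptor Ptch1, named after its values were seen, at 2.78, 3.74 and 3.07 FPKM. The Hedgehog target Gli1, also named so, stood at 0.14, 0.16 and 0.12 FPKM. All 17 genes with a mean of at least 1 FPKM lay within 2-fold across the libraries on FPKM + 1 (86.1% of all genes). On FPKM itself some were wider apart, such as Notch2. Across the 766 genes annotated in the table as transmembrane signalling receptors, 183 were at 1 FPKM or more in all 3 libraries, and the median was 0.11 FPKM. Among its highest members was the clotting initiator F3 (301.5, 171 and 85.4 FPKM). That annotation also holds proteins that are not receptors, such as Sfrp2 (374, 383 and 174 FPKM), a secreted Wnt modulator.

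Nuclear receptors were led by orphan receptors. Of 48 genes with values, 26 were at 1 FPKM or more in all 3 libraries, with a median of 2.02 FPKM. Nr4a1, an immediate early gene, stood at 124, 94.8 and 33.03 FPKM, lowest in control 3. Nr5a1, steroidogenic factor 1, stood at 45.6, 38.6 and 55.3 FPKM and Nr2f2, a factor of testicular interstitial mesenchyme, at 37.4, 38.8 and 29.6 FPKM. Both lay within 1.5-fold across the libraries. Nr1h2 (33.6, 25.8 and 29.7 FPKM), Nr2f6 (22, 22.1 and 16.6 FPKM), Nr1d1 (18.2, 23.5 and 16.5 FPKM), Rxra (14.5, 18.2 and 15.2 FPKM), Rxrb (14.8, 13.7 and 13.3 FPKM) and Thra (15.1, 11.8 and 14.7 FPKM) formed a lower band. The glucocorticoid receptor Nr3c1 stood at 11.9, 16.2 and 12.98 FPKM. The oestrogen receptor Esr1, named after its values were seen, stood at 7.6, 5.33 and 2.14 FPKM, lowest in control 3.

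HOX genes, which record position along the body axis, were expressed from 3 of the 4 clusters. Of 38 genes with values, 16 were at 1 FPKM or more in all 3 libraries, 0 of 11 in Hoxa, 4 of 9 in Hoxb, 6 of 9 in Hoxc and 6 of 9 in Hoxd. Hoxd8 stood at 44.9, 37.9 and 27.8 FPKM, Hoxd9 at 35.5, 32.8 and 26.6 FPKM and Hoxd10 at 29.7, 25.8 and 25.6 FPKM. Of the Hoxc genes, Hoxc6 was highest at 17.2, 12.8 and 17.8 FPKM, before Hoxc10 (11.6, 8.17 and 8.97 FPKM) and Hoxc8 (10.9, 8.42 and 8.27 FPKM). By paralog group, 7 of 19 genes of groups 1 to 7 reached 1 FPKM in all 3 libraries, 7 of 10 of groups 8 to 10, and 2 of 9 of groups 11 to 13. The last 2, named after their values were seen, were Hoxd11 (2.76, 1.5 and 1.75 FPKM) and Hoxc13 (1.87, 1.18 and 1.33 FPKM). A library over 2-fold apart from both others was seen for 0 of the 16 HOX genes with a mean of at least 1 FPKM and for 6.98% of all genes, a share too small to set these genes apart.

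**Figure D4:**
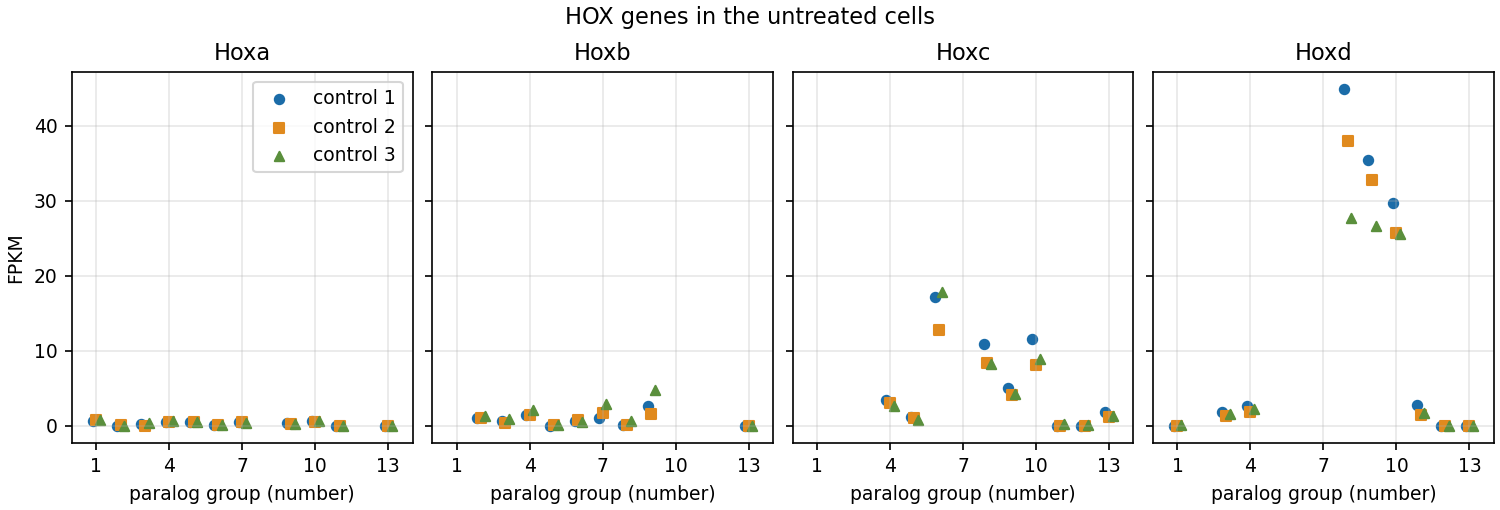
FPKM of each HOX gene (linear axis) is plotted against its paralog group number, in 1 panel per cluster, with circles, squares and triangles for controls 1, 2 and 3. Hoxa stays near 0, and Hoxd groups 8 to 10 are the highest in every library, between 25.6 and 44.9 FPKM.

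Other factor families were represented by a few members each. Gata4, a gonadal somatic factor, stood at 72.6, 56.2 and 79.9 FPKM, while Gata6 (2.53, 0.98 and 4.15 FPKM) and Gata3 (2.69, 2.32 and 2.26 FPKM) were low, and 2 of 6 GATA genes were at 1 FPKM or more in all 3 libraries. Of 17 SOX genes with values, 5 were. Sox4 stood at 23.3, 15.3 and 36.7 FPKM, and Sox9, the Sertoli cell factor, at 3.69, 4.22 and 27.7 FPKM, highest in control 3. Sox18, an endothelial factor, stood at 8.93, 1.66 and 0.33 FPKM, highest in control 1. Of 16 KLF genes with values, 12 were at 1 FPKM or more in all 3 libraries, led by Klf6 at 91.95, 95.5 and 59.4 FPKM. Klf2 (64.5, 45.6 and 18.3 FPKM) and Klf4 (26.4, 34.1 and 16.3 FPKM), a repressor of smooth muscle genes, were lowest in control 3. Of 16 T-box genes with values, 3 were, and the highest was Tbx2 at 7.26, 6.33 and 6.07 FPKM.

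Of 54 mesenchymal and gonadal regulators, 37 were at 1 FPKM or more in all 3 libraries, with a median of 6.63 FPKM. The inhibitors of helix-loop-helix factors were high, Id3 at 297, 208 and 91.7 FPKM, Id1 at 147, 123 and 42.1 FPKM and Id2 at 105, 98.1 and 24.8 FPKM. The immediate early gene Egr1 stood at 348, 136 and 44.02 FPKM. All 4 were lowest in control 3 and highest in control 1. The mesenchymal factors Tcf21 (96.2, 67.6 and 37.1 FPKM), Prrx1 (76.1, 68.6 and 37.7 FPKM) and Osr1 (39.2, 45.5 and 29.1 FPKM) were present in every library, as was the Notch target Hes1 (25.03, 71.7 and 30.3 FPKM), highest in control 2. Across the 991 genes annotated in the table as sequence-specific transcription factors, 560 were at 1 FPKM or more in all 3 libraries, with a median of 2.44 FPKM. Among the highest of them were Aebp1 (327, 457 and 389 FPKM), Hmga1 (255, 399 and 156 FPKM), Tsc22d1 (155, 151 and 485 FPKM), Atf5 (261, 169 and 216 FPKM), Atf4 (212, 218 and 146 FPKM) and Hif1a (156, 193 and 185 FPKM). Tsc22d1 was highest in control 3. That annotation also holds the glycolytic enzyme Eno1 (983, 625 and 556 FPKM), whose near-identical copy Eno1b makes its level uncertain.

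Of 54 secreted factors of the tubule niche, 41 were at 1 FPKM or more in all 3 libraries, with a median of 9.84 FPKM, and 20 of the 46 with a mean of at least 1 FPKM lay within 2-fold (86.1% of all genes). Csf1, which acts on macrophages and on spermatogonial stem cells, stood at 517, 697 and 314 FPKM. Igfbp2 stood at 1616, 349.6 and 342 FPKM, highest in control 1, and the chemokine Ccl2 at 91.98, 1017 and 79.5 FPKM, highest in control 2. Adm, the vasodilator adrenomedullin, stood at 495, 387 and 188 FPKM and Vegfd, listed as Figf, at 334, 195 and 60.3 FPKM. Both were lowest in control 3. Cxcl12, a stem cell chemokine, stood at 222, 277 and 174 FPKM, and Tgfb3 at 63.8, 75.9 and 156 FPKM, highest in control 3. Gdnf, the stem cell factor of the niche, named after its values were seen, stood at 0.26, 0.92 and 5.81 FPKM. It was under 1 FPKM in controls 1 and 2 and passed it only in control 3. Kitl, the ligand of KIT on germ cells, also named so, stood at 80.9, 74.02 and 42.2 FPKM. Control 3 stood over 2-fold above both others for 8 of the 46 and below for 6, where 3.67% and 1.59% of all genes did.

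Markers of other testicular cells were present, and they differed between the libraries. Of 12 Leydig cell markers, 7 were at 1 FPKM or more in all 3 libraries, with sums of 2439, 2306 and 1103 FPKM. Insl3, the Leydig cell peptide hormone, stood at 1607, 1587 and 181 FPKM, 8.75-fold lower in control 3 than in control 2. Insl3 made up most of the sum in controls 1 and 2, but not in control 3. Of the 7 members with a mean of at least 1 FPKM, control 3 was the highest library for 3 and the lowest for 4. These shares were 42.2% and 37.2% over all genes. Cyp11a1, the cholesterol side-chain cleavage enzyme, stood at 346, 387 and 452 FPKM and Hsd3b1, which acts on its product, at 78.8, 68.2 and 66.6 FPKM. Star, which carries cholesterol into mitochondria, was at 106, 42.2 and 211 FPKM. Of the defining markers Cyp17a1 was listed at 0, 0.03 and 0 FPKM, Hsd17b3, named after its values were seen, was at 0 in every library, and the receptor gene Lhcgr was at 0.15, 0.27 and 0 FPKM. Insl3, Cyp11a1 and Star were thus abundant where Cyp17a1, Hsd17b3 and Lhcgr were at or near 0. The part of Leydig cell RNA in the levels above was not tested.

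Of 18 Sertoli cell markers, 12 were at 1 FPKM or more in all 3 libraries, and their sums were 693, 632 and 4268 FPKM. Control 3 stood over 2-fold above both others for 9 of the 14 with a mean of at least 1 FPKM, where 3.67% of all genes did. Clu, a secreted chaperone, stood at 264, 223 and 2700.0 FPKM and Cldn11, the tight junction protein of the blood-testis barrier, at 2.22, 1.37 and 237 FPKM. Wt1 (7.85, 2.21 and 53.8 FPKM), Inha (15.3, 10.3 and 56.8 FPKM) and Sox9 also were highest in control 3. Amh (0.13, 0.09 and 0.26 FPKM) and Fshr, named after its values were seen (0, 0 and 0.09 FPKM), were near 0 in all 3 libraries. Clu and Ctsl together made up most of the sum in every library. The part of Sertoli cell RNA in the values of control 3 above, including Gdnf, Amhr2 and the laminin receptor chains, was not tested.

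Germ cell RNA was scarce, 1 of 19 markers at 1 FPKM or more in all 3 libraries. That marker was Uchl1 (24.3, 19.4 and 30.7 FPKM), and the germ cell helicase Ddx4 stood at 1.09, 0.81 and 0.08 FPKM. Macrophage markers were low, 6 of 14, with sums of 71.7, 58.0 and 113 FPKM, led by Lyz2 at 31.4, 19.2 and 60.02 FPKM, while Adgre1 stood at 0.37, 0.22 and 0.56 FPKM. Endothelial markers, 7 of 12, summed to 123, 84.4 and 52.5 FPKM. The most abundant were Emcn (38.7, 30.6 and 21.4 FPKM) and Cdh5 (26.5, 29.96 and 14.8 FPKM). Cdh5 was highest in control 2, as was Flt1 (1.51, 2.41 and 1.86 FPKM), and Robo4 (4.17, 0.59 and 5.06 FPKM) in control 3. Pecam1 stood at 13.2, 2.87 and 1.5 FPKM and Kdr at 4.51, 1.69 and 1.22 FPKM. Both were highest in control 1, which stood over 2-fold above both others for 4 of the 9 with a mean of at least 1 FPKM, where 0.749% of all genes did. Fibroblast and stromal markers, 10 of 14, summed to 1554, 834 and 1036 FPKM, with Ly6a at 390.4, 137 and 90.2 FPKM and Cd34 at 16.6, 16.4 and 1.19 FPKM. Pericyte markers, 6 of 9, summed to 52.5, 93.4 and 137 FPKM, with Mcam at 21.2, 32.6 and 52.97 FPKM and Cspg4 at 8.73, 19.6 and 29.2 FPKM, both lowest in control 1. Rgs5 was low (1.18, 2.32 and 1.94 FPKM), and Abcc9 (0.37, 0.72 and 0.15 FPKM), Kcnj8 and Higd1b were under 1 FPKM in every library. Epithelial, lymphoid, red blood cell and striated muscle lists had 0 members at 1 FPKM or more in all 3 libraries.

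**Figure D5:**
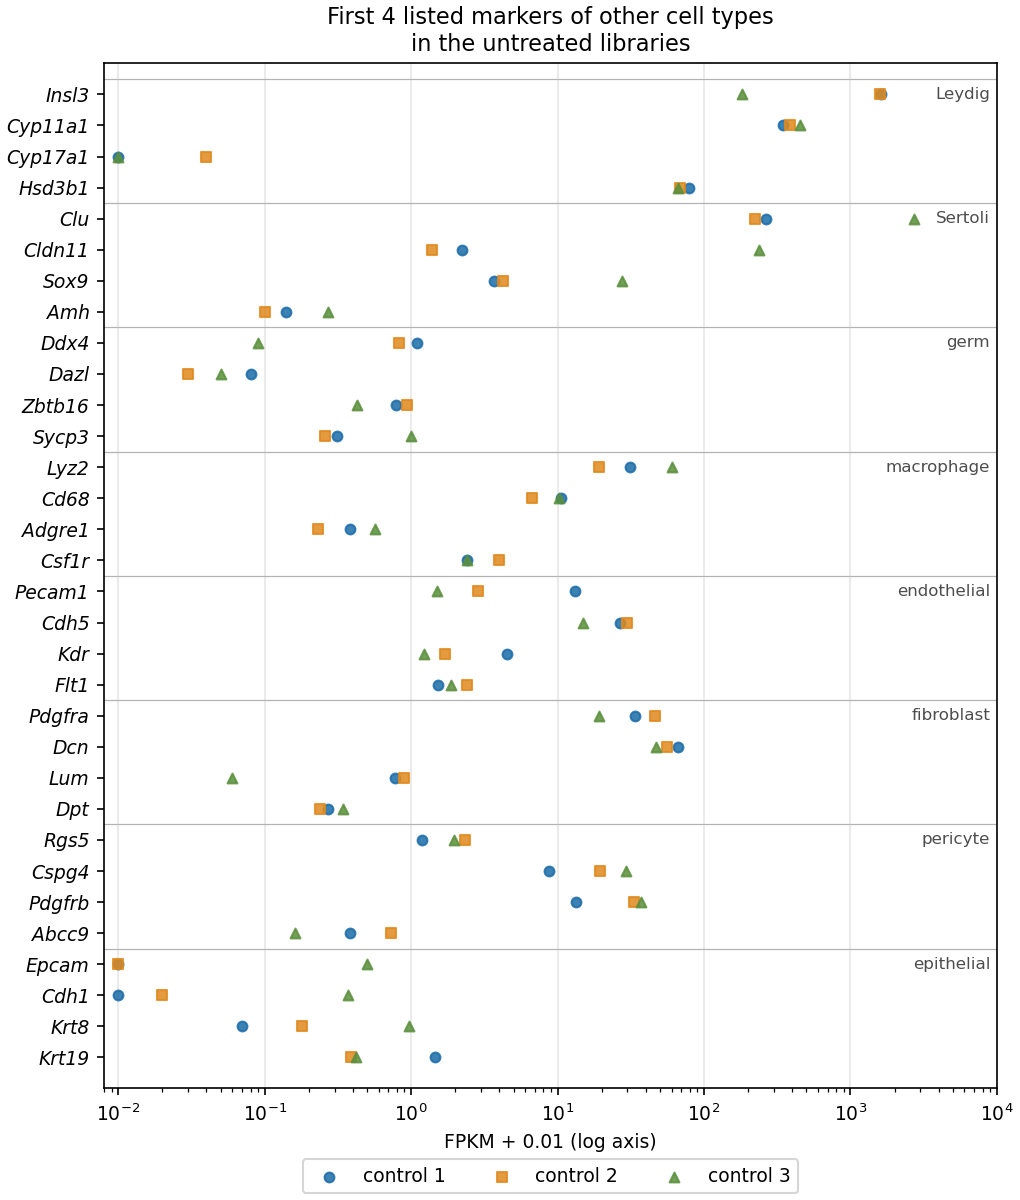
The first listed markers of 8 other cell types are plotted as FPKM + 0.01 (log axis), with circles, squares and triangles for controls 1, 2 and 3. Sertoli markers Clu, Cldn11 and Sox9 are highest in control 3, Insl3 is lowest there, and Cyp17a1 lies at or near 0. Of the endothelial markers, Pecam1 and Kdr are highest in control 1, and Cdh5 and Flt1 in control 2.

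Proliferation markers differed between the libraries. All 18 proliferation markers were at 1 FPKM or more in all 3 libraries. Pcna, the replication clamp, stood at 119, 175 and 67.8 FPKM, Birc5 at 44.4, 75.8 and 16.6 FPKM, Ccnb1 at 31.8, 50.95 and 13.6 FPKM and Cdk1 at 28.8, 38.4 and 13.04 FPKM. Control 2 was the highest library for 14 of the 18 (36.4% of all genes) and control 3 the lowest for 15 (37.2% of all genes). Control 3 stood over 2-fold below both others for 9, where 1.59% of all genes did. The cell cycle inhibitor Cdkn1a (175, 131 and 233 FPKM) and the cyclin Ccnd2 (69.7, 58.8 and 111 FPKM) ran the other way, highest in control 3. So did another inhibitor, Cdkn2a, named after its values were seen, at 6.76, 4.79 and 19.04 FPKM. It was the 1 member over 2-fold above both others in control 3.

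The genes on which a library stood farthest apart differed by library. Control 1 was over 2-fold above both others for 85 genes (0.749%) and below for 22 (0.194%). Control 2 was above for 58 (0.511%) and below for 71 (0.625%), and control 3 above for 417 (3.67%) and below for 181 (1.59%). In control 1 the carbonic anhydrase Car12 (51.1, 6.96 and 6.6 FPKM), Ndufa4l2 (67.3, 3.74 and 12.7 FPKM), Igfbp2 and the proteoglycan Ogn (49.02, 10.1 and 7.5 FPKM) were above, with Pecam1 and Ramp2 (21.4, 5.97 and 5.78 FPKM). Gpnmb (17.2, 94.1 and 50.9 FPKM), Pdgfrb and Cspg4 were below. Those above in control 2 included the chemokines Cxcl5 (3.41, 106 and 0.42 FPKM), Cxcl1 (16.4, 199 and 4.98 FPKM), Ccl2 and Ccl7 (69.3, 375 and 40.3 FPKM), with the acute-phase genes Saa3 and Hp (6.24, 58.2 and 11.7 FPKM). Adgrg1 (19.9, 2.41 and 47.3 FPKM) and transferrin, Trf (12.2, 1.57 and 16.7 FPKM), were below. In control 3 Cldn11, Tmem184a (1.09, 0.2 and 108 FPKM), Gatm (2.63, 1.93 and 150.3 FPKM), Ttyh1 (0.65, 0.23 and 62.5 FPKM), Cst12 (1.13, 0.91 and 76.6 FPKM) and the junction protein Cgn (0.63, 0.48 and 52.8 FPKM) were above, each over 50-fold over the nearer library. Insl3, Ptx3 (66.3, 247 and 7.34 FPKM), Cd34, Fosb (16.3, 22.1 and 2.32 FPKM), Trem2 (84.7, 37.9 and 8.08 FPKM) and Fosl1 (37.9, 44.5 and 8.47 FPKM) were below. Near-identical copies, such as the Klk1b genes, Apol9a and Rps27rt, were also among the extremes, and their division between copies is uncertain.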

How the data were processed

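RNA of untreated primary mouse peritubular myoid cells was described from 3 libraries, with no comparison with heated cells. The authors deposited FPKM values per gene and library, per the file headers. Per the submitters' processing notes the genome was mm10, and the tools listed, with no role given, were RSEM 1.2.12, HISAT2 2.0.4 and Bowtie2 2.2.5. The gene lists, their members and the measures were chosen with earlier results of these data known. Genes were named by a rule: the 30 highest by mean, the 10 highest of each list (all of shorter ones), the first 4 markers of each other cell type, the 8 genes farthest above and below for each library at 10 FPKM or more, and the 25 highest of each annotated class. Genes outside it are marked in the text, and some genes within it are not reported here. Promoter motifs were also chosen after levels were seen. No test was run, since 1 group has no contrast. Differences used log2(FPKM + 1), a library stood apart if over 2-fold from both others, and genes needed a mean of 1 FPKM. Depth was estimated from transcripts of 400 to 1200 bases, where 88.5 to 90.9% of low values lay within 0.2 of a whole fragment (40% by chance). Scripts (Python 3.11.15, pandas 2.3.3) were tested on simulated data. Of 17509 genes matched to RefSeq, 40 had another chromosome in the table. Alternatives were other minimums, pseudocounts, folds, scalings and leaving out each library.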

Additional observations from a re-analysis of the deposited data

How the results depend on the processing

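Leaving out each library, another minimum or a minimum on the mean kept every detection count within 1.5 times the reported one (10775 to 10882 genes when a library was left out), and of the list counts 153 kept their size and 7 moved. The 7 were GATA genes (4 in place of 2 after rescaling the libraries to equal sums and at a minimum of 0.5 FPKM), germ cell markers (2 in place of 1 in both) and striated muscle markers (2 in place of 0 in both, and 0 to 1 when a library was left out). The mean r over pairs was 0.949, and it was 0.976 with no filter on low values, 0.922 for genes with a mean of at least 10 FPKM and 0.928 to 0.975 when a library was left out. The mean of the pairs' median absolute log2 differences was 0.283, with 0.184 without the filter and 0.207 to 0.349 when a library was left out; the highest r and the smallest difference were those without control 3. Counts of genes on which a library stood apart depended on the threshold. At 4-fold they were 6 above and 1 below for control 1, 9 and 6 for control 2, and 114 and 10 for control 3. With a mean of at least 10 FPKM they were 43 and 11, 32 and 37, and 138 and 120. A pseudocount of 0.1 gave 57 below for control 1, 94 above and 192 below for control 2, and 310 below for control 3, and quantile normalization gave 14 below for control 1. The causes were not tested. The alternative without mitochondrially encoded genes was not run, since the table lists none of them. No paired analysis was possible because a single group of untreated libraries was described. Depth limits the lowest values, where a few fragments set a value.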
